A study of Rattus norvegicus with 36 samples.

Results

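H9C2 is a line of rat cardiac myoblasts, the precursor-like cells of heart muscle that divide in culture. The comparison described here sets the hypoxic H9C2 cells that received the Trim AG mimic against the normoxic ones that received it. It rests on 6 of the 36 libraries of the series, the 3 labelled Hypoxia Trim AG and the 3 labelled Normoxia Trim AG, and counts of 33 libraries were used in all. Trim AG is an isomiR of miR-125b, that is, a variant of the microRNA that differs from it at the 3′ end. In both groups the mimic was transfected at 25 nmol/L for 24 h before the gas exposure, which lasted 24 h. Hypoxic cells were held below 0.2% oxygen in a low-glucose DMEM without serum, while the normoxic ones received fresh DMEM. Oxygen and medium therefore changed together and cannot be told apart here. The other groups of the series received a mimic control (MC), miR-125b, Plus A, Trim A or Trim AGU at the same oxygen levels. Because the libraries were made from poly-A RNA, the mimic was not measured in them. All cells came from a single line, and nothing in the labels says whether the 3 libraries of a group came from separate cultures, so p-values measure the spread between these libraries, which may be technical. In bulk RNA, fewer cells of a kind and less RNA per cell cannot be told apart.

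Cells sense oxygen through prolyl hydroxylases that mark the alpha subunits of the hypoxia-inducible factors (HIFs) for destruction by the VHL ubiquitin ligase. When oxygen falls, the subunits are spared, pair with ARNT and switch on genes of glucose uptake, glycolysis, mitophagy and vessel growth. Severe or long hypoxia, and loss of nutrients, can also stop cell division and engage the integrated stress response, in which ATF4 and then CHOP (encoded by *Ddit3*) are made and change amino acid metabolism and survival. In muscle precursors, differentiation is driven by the factors MYOD1 and myogenin, and both hypoxia and miR-125b are known to touch it.

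The mimics are shown first because Trim AG and miR-125b differ only at their 3′ end. The mature rat miR-125b has 22 bases in RefSeq, on the plus strand at chr11:29732588-29732609 of GRCr8. Trim AG was derived from it by removing the last 2 bases, read from the 3′ end inwards as A and then G. Capitals mark the seed, bases 2 to 8 from the 5′ end, with which a microRNA pairs to its targets, and both mimics have the same one.
miR-125b: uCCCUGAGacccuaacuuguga
Trim AG: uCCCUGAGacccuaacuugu

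The hypoxic libraries were deeper, with 39940056 to 42672520 counts each against 28690101 to 30547343 in normoxia. Values are given in CPM, counts scaled by TMM and set to a total of 1e6 per library, and the spread is the SD over the 3 libraries of a group. On log2 CPM, hypoxic and normoxic libraries lay 0.844 to 0.971 apart (root mean square difference), further than the hypoxic libraries from each other (0.416 to 0.532) or the normoxic ones (0.400 to 0.444). Replicates were not copies of one another. The chi-square statistic for their counts averaged 28 to 96 over genes in hypoxic pairs and 5.98 to 11.7 in normoxic pairs, where sampling alone gives about 1, and hypoxia replicates 1 and 2 lay furthest apart. Markers of the H9C2 myoblast (*Vim*, *Acta2*, *Myod1*, *Myog* and *Tnnt2* among 9) were all detected. Summed over their lists, markers of adult cardiomyocytes reached 2.27 to 4.21 CPM, endothelial markers 0.904 to 2.09 CPM and epithelial markers 0.209 to 0.552 CPM over the 6 libraries. Fibroblast markers, almost all of it *Col1a1* (a collagen gene), summed to 16100 to 17700 CPM in normoxia and 5610 to 12500 CPM in hypoxia, where 2 of 5 tested were lower and 1 higher. Leukocyte markers summed to 14 to 16 CPM, most of it *Cd14*, and *Ptprc*, which defines leukocytes, averaged 0.0797 CPM in normoxia and 0.0979 CPM in hypoxia. Ribosomal protein genes took 3.53 to 4.77% of the counts in hypoxia and 2.59 to 2.86% in normoxia. Outside the Trim AG groups, the libraries labelled Normoxia miR-125b replicate 1 and Normoxia Plus A replicate 1 each stood nearer to the other label. *Cav1*, of caveolae, was at 106 CPM in the first, beside 287 and 266 CPM in replicates 2 and 3 of its label, and at 271 CPM in the second, beside 103 CPM in both others of its label. On log2(CPM + 1), the first lay on average 0.286 from the others labelled miR-125b and 0.251 from those labelled Plus A, and the second 0.282 from the others labelled Plus A and 0.252 from those labelled miR-125b. By this distance Normoxia miR-125b replicate 3 also lay slightly nearer to Plus A (0.264 against 0.268), and replicate 2 lay 0.271 from both labels. Normoxia Plus A replicates 2 and 3 lay nearer to their own label. The labels were kept, an exchange was not tested, and the counts of the interactions with these mimics are also given without the normoxic replicate 1 library.

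Hypoxia with Trim AG shifted a large part of the transcriptome. Of 15256 genes tested, 2286 (15.0%) were higher and 2719 (17.8%) lower in hypoxia, together 32.8%. A gene counted as called in edgeR when its adjusted p was under 0.05 and its change at least 1.5-fold. The decreases reached further, since 325 genes fell by at least 4-fold and 192 rose by as much. The median log2 fold change of all genes tested was 0.0094, so the bulk of genes was centred. The 3 hypoxic values all lay outside the range of the 3 normoxic ones for 63.3% of the genes tested. The plot of the gene lists by fold change shows the pattern that the following paragraphs describe. NRF2 targets, the stress response and the DNA damage list were highest by median, and the cell cycle and sterol lists lowest.

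**Figure D1:**
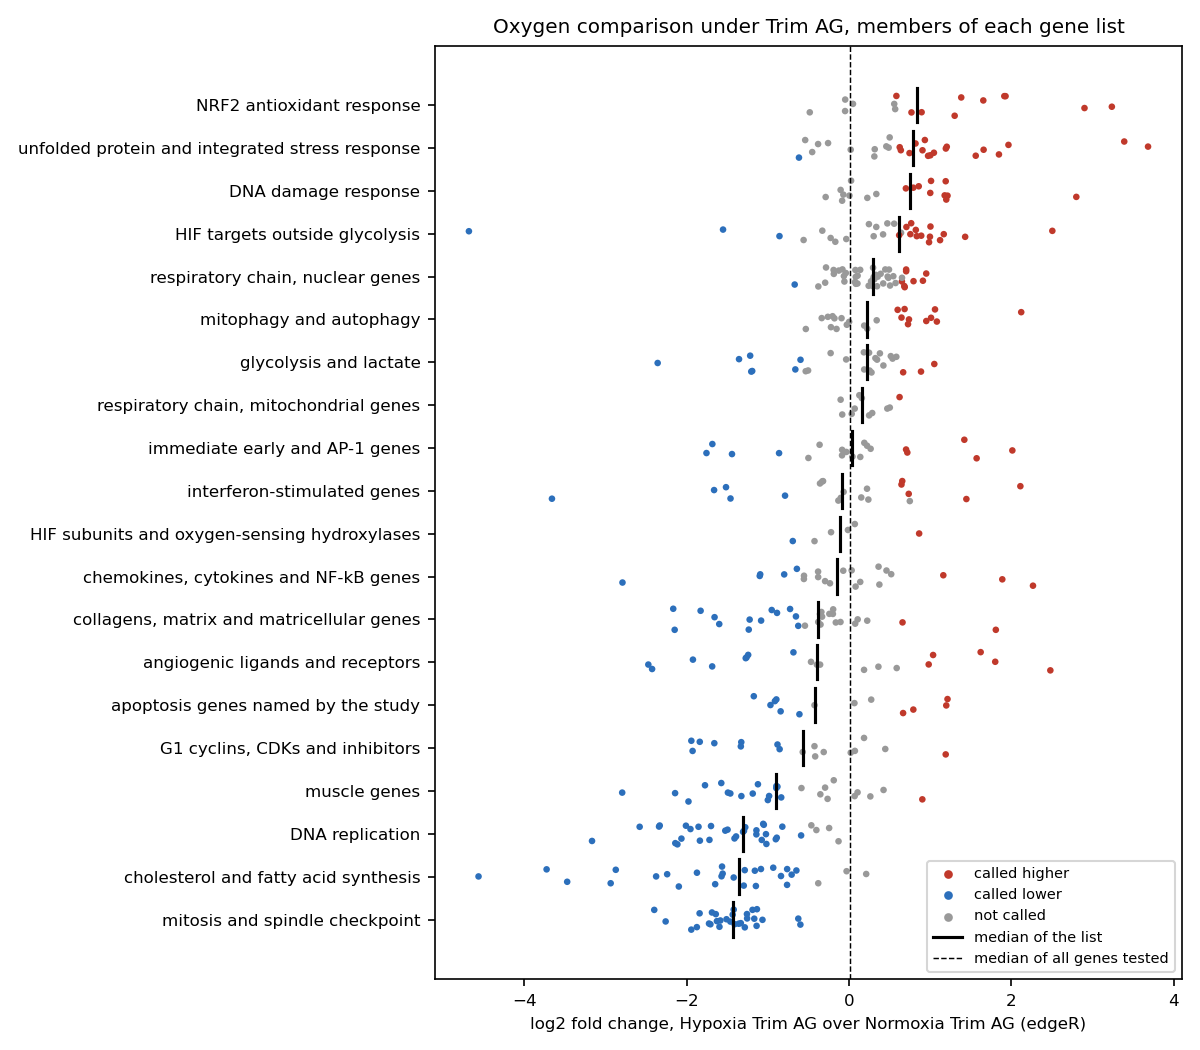
Log2 fold change of Hypoxia Trim AG over Normoxia Trim AG (x axis) for each tested member of 20 gene lists (y axis, ordered by median); points are genes, coloured by call, bars are list medians and the dashed line is the median of all genes tested, 0.0094. All 29 mitosis genes lie below zero, and none of the 16 NRF2 genes was called lower.

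Of the 6 tested genes of HIF subunits and oxygen sensors, *Vhl* was higher and *Arnt2* lower, beside 15.0% and 17.8% of all genes. The list held 10 genes, and *Epas1*, *Hif3a*, *Egln1* and *Egln3* were not tested. *Vhl*, the ubiquitin ligase subunit that recognises hydroxylated HIF, was at 48.3, 47.3 and 46.8 CPM in normoxia and 83.9, 89.5 and 86.2 CPM in hypoxia (log2 fold change 0.87 ± 0.071, adjusted p = 1.61e-05). *Hif1a*, whose protein rather than mRNA is the classical target of the oxygen sensor, stood at 123, 128 and 125.4 CPM in normoxia and 116, 131 and 126 CPM in hypoxia, and the groups overlapped (log2 fold change -0.011 ± 0.078, adjusted p = 0.913). *Arnt2*, a partner of the alpha subunits, was lower with 35.7, 24 and 28.8 CPM in hypoxia against 45.8, 51.2 and 45.9 CPM in normoxia (log2 fold change -0.69 ± 0.13, adjusted p = 0.00217), but without hypoxia replicate 2 the log2 fold change of -0.56 no longer reached the 1.5-fold threshold. The hydroxylases *Egln2* (0.074 ± 0.085) and *Hif1an* (-0.42 ± 0.12) and the partner *Arnt* (-0.22 ± 0.074) were not called.

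The classical HIF targets outside glycolysis were mostly higher where they were called. Of 29 tested, 14 were higher and 3 lower, with a median log2 fold change of 0.62, beside 15.0% and 17.8% of all genes. The mitophagy receptor gene *Bnip3* led them at 38.3, 38.4 and 40.5 CPM in normoxia and 188, 254 and 224 CPM in hypoxia, a 5.68-fold rise (log2 fold change 2.51 ± 0.12, adjusted p = 9.69e-07). *Ddit4*, an inhibitor of mTORC1, went from 29.7, 28.2 and 29.7 CPM to 87.7, 65.5 and 83.3 CPM (log2 fold change 1.43 ± 0.11, adjusted p = 1.34e-05), and *Hilpda*, which slows the breakdown of lipid droplets, from 7.1, 6.54 and 6.16 CPM to 13.9, 15.5 and 15.1 CPM (log2 fold change 1.17 ± 0.12, adjusted p = 4.61e-05). The rule that chose these genes, and those named from the lists below, asked for groups that do not overlap, so their separation is no result. The list was not uniform, however. *Lox*, which crosslinks collagen, fell 2.93-fold (log2 fold change -1.55 ± 0.096, adjusted p = 3.5e-06) and *Tfrc*, the transferrin receptor, 1.81-fold (log2 fold change -0.85 ± 0.078, adjusted p = 2.85e-05). *Ndrg1*, another textbook hypoxia gene and chosen here after its values were seen, was low throughout at 1.53, 2.16 and 1.6 CPM in normoxia and 1.32, 1.07 and 1.2 CPM in hypoxia, with no overlap, and was not called (log2 fold change -0.56 ± 0.23, adjusted p = 0.0623).

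Glycolysis genes were called in both directions. Of 26 tested 3 were higher and 7 lower, with a median log2 fold change of 0.22, beside 15.0% and 17.8% of all genes. The glucose transporter gene *Slc2a1* rose from 33.8, 31.9 and 32.2 CPM to 85.3, 48.5 and 69.3 CPM (log2 fold change 1.05 ± 0.17, adjusted p = 0.000869), and the hypoxic libraries spread widely. *Pkm*, pyruvate kinase, rose 1.85-fold (log2 fold change 0.89 ± 0.074, adjusted p = 1.77e-05) and *Aldoa*, aldolase, 1.59-fold (log2 fold change 0.67 ± 0.093, adjusted p = 0.000314). Lactate dehydrogenase gene *Ldha* was at 1183, 1095 and 1158 CPM in normoxia and 1201, 1360.5 and 1345 CPM in hypoxia, with no overlap but without passing the test (log2 fold change 0.18 ± 0.082, adjusted p = 0.0825). *Pdk1*, a gene of a kinase that inhibits pyruvate dehydrogenase, was at 14.9, 13.2 and 14.2 CPM in normoxia and 19.8, 20.3 and 23.3 CPM in hypoxia. It missed the fold threshold narrowly (log2 fold change 0.58 ± 0.10, adjusted p = 0.00115). Among the decreases, *Pfkm*, the muscle form of phosphofructokinase, dropped from 108, 123 and 106 CPM to 25.7, 17 and 23 CPM (log2 fold change -2.36 ± 0.15, adjusted p = 3.62e-06). *Ldhb*, the heart form of lactate dehydrogenase, fell 2.55-fold (log2 fold change -1.35 ± 0.089, adjusted p = 4.98e-06) and *Pdk2* 2.3-fold (log2 fold change -1.2 ± 0.12, adjusted p = 4.2e-05). Without hypoxia replicate 2, the library with the least *Slc2a1*, 5 genes of the list were higher in place of 3.

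**Figure D2:**
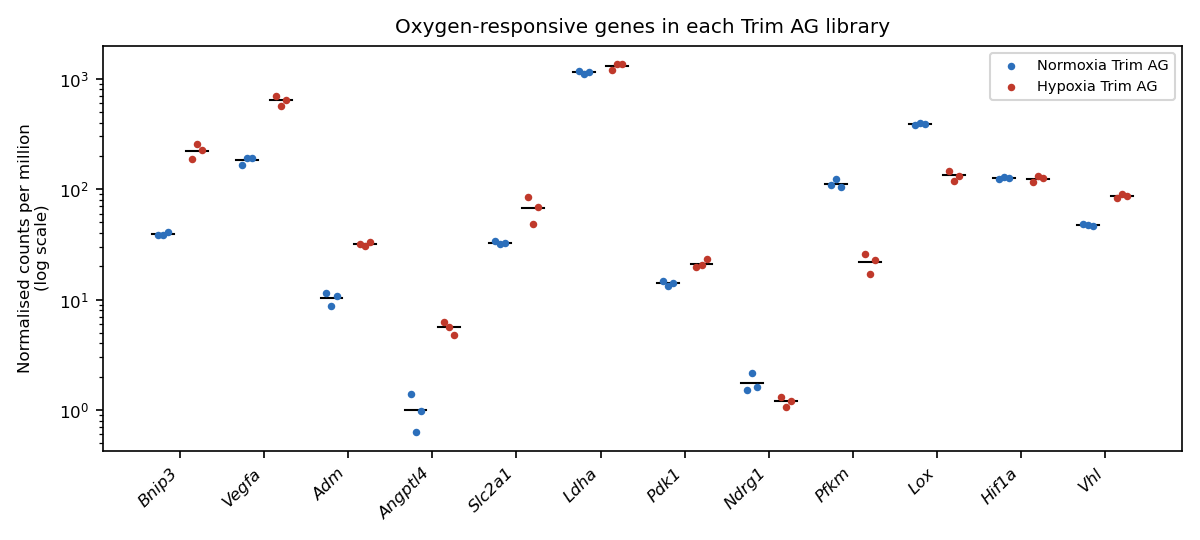
Normalised counts in CPM (y axis, log scale) of 12 oxygen-responsive genes in each Trim AG library; points are the 3 libraries of a group and bars their means. *Bnip3*, *Vegfa*, *Adm* and *Slc2a1* separate upwards in hypoxia, *Pfkm* and *Lox* separate downwards, and *Hif1a* overlaps.

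HIFs are known to bind DNA at short elements with the core ACGTG or GCGTG. The core ACGTG, or its reverse complement CACGT, lay within 250 bases before to 50 after the start of 73.9% of the HIF targets with a promoter in the RefSeq table (17 of 23) and of 54.2% of the glycolysis genes (13 of 24). Over all promoters of the table the share was 19.7%, and over the promoters of tested genes 25.4%. It was 27.7% among genes called higher, 22.7% among genes called lower and 25.6% among those not called. With GCGTG counted as well, the contrast was smaller. The shares were then 82.6% of the HIF targets, 70.8% of the glycolysis genes and 61% of the tested genes. They were 61.1% among genes called higher, 56.9% among genes called lower and 62.2% among those not called. The windows show the first match in 4 of the genes described as rising, with the core in capitals, 5′ to 3′ on the strand of the gene, in GRCr8. They lie at chr1:203155047-203155071 (minus), chr20:28437161-28437185 (minus), chr4:58836406-58836430 (plus) and chr5:138002461-138002485 (plus). A match describes the letters only, and binding was not measured.
*Bnip3*: gcacgcgccgCACGTgccacacgcg
*Ddit4*: aacgttgcgaACGTGcgcccggtgc
*Hilpda*: tgaaccgcggACGTGcccccggggc
*Slc2a1*: cccgccccggACGTGgtcctcaggc

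Genes of angiogenic ligands and receptors changed in both directions, with 5 of 19 higher and 8 lower (median log2 fold change -0.39), beside 15.0% and 17.8% of all genes. *Vegfa*, the main vascular growth factor, was at 166, 191 and 192 CPM in normoxia and 702, 567 and 645 CPM in hypoxia (log2 fold change 1.8 ± 0.11, adjusted p = 2.77e-06). The vasodilator peptide gene *Adm* rose from 11.4, 8.8 and 10.7 CPM to 31.9, 30.3 and 33.2 CPM (log2 fold change 1.62 ± 0.11, adjusted p = 5.72e-06), and *Angptl4*, an inhibitor of lipoprotein lipase, from 1.39, 0.626 and 0.978 CPM to 6.31, 5.68 and 4.81 CPM (log2 fold change 2.48 ± 0.27, adjusted p = 8.04e-05). In the other direction *Cxcl12*, a chemokine that draws progenitor cells, fell from 523, 539.7 and 525 CPM to 101, 86 and 99.2 CPM (log2 fold change -2.47 ± 0.092, adjusted p = 5.25e-07). The VEGF co-receptor gene *Nrp1* fell 5.37-fold (log2 fold change -2.42 ± 0.11, adjusted p = 9.55e-07), and *Thbs1*, an anti-angiogenic matrix protein gene, 3.79-fold (log2 fold change -1.92 ± 0.18, adjusted p = 3.53e-05).

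Genes of the stress response were mostly higher. Of 28 genes of the unfolded protein and integrated stress responses, 17 were higher and 1 lower, beside 15.0% and 17.8% of all genes. The median log2 fold change was 0.78. *Trib3*, a pseudokinase gene switched on by ATF4 and CHOP, was at 47.3, 38.5 and 43.8 CPM in normoxia and 578, 541 and 550.4 CPM in hypoxia, a 12.9-fold rise (log2 fold change 3.69 ± 0.10, adjusted p = 1.67e-07). *Ddit3*, which encodes CHOP, rose from 21.8, 25.5 and 24.7 CPM to 212, 289.6 and 255 CPM, 10.5-fold (log2 fold change 3.39 ± 0.13, adjusted p = 6.36e-07). *Ppp1r15a*, whose product GADD34 directs the dephosphorylation of eIF2α, rose 3.91-fold (log2 fold change 1.97 ± 0.10, adjusted p = 1.32e-06). *Atf4* and *Asns*, asparagine synthetase, were picked out after their values were seen and stand for the same arm. *Atf4* was at 485, 461 and 485 CPM in normoxia and 989, 1236 and 1054 CPM in hypoxia (1.2 ± 0.098) and *Asns* at 119, 114 and 133 CPM in normoxia and 389.7, 492 and 439 CPM in hypoxia (1.85 ± 0.11). The chaperone side of the list differed. *Hspa5*, the chaperone BiP, had a log2 fold change of 0.50 and *Hsp90b1* one of -0.26, neither called, while the disulfide isomerase gene *Pdia4* was the only member called lower, from 397, 429 and 415 CPM to 239.6, 304 and 268 CPM (log2 fold change -0.61 ± 0.10, adjusted p = 0.000798). Without hypoxia replicate 1 that call was lost (log2 fold change -0.53).

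NRF2, the factor that answers oxidative and electrophilic stress, had 10 of its 16 tested list members higher and 0 lower, in DESeq2 as well (median 0.83). The shares among all genes were 15.0% and 17.8%. Heme oxygenase *Hmox1* was at 111, 88.1 and 106 CPM in normoxia and 919, 993 and 971 CPM in hypoxia (log2 fold change 3.24 ± 0.11, adjusted p = 3.06e-07). *Osgin1* rose from 4.56, 3.34 and 2.9 CPM to 31.5, 24.2 and 25.1 CPM (log2 fold change 2.9 ± 0.18, adjusted p = 3.67e-06), and the sulfiredoxin gene *Srxn1*, which repairs peroxiredoxins, from 12.3, 10 and 11.5 CPM to 41.2, 39.5 and 48.5 CPM (log2 fold change 1.93 ± 0.11, adjusted p = 2.72e-06). The gene of the factor itself, *Nfe2l2*, and its target *Nqo1*, both chosen after their values were seen, rose by 1.66 ± 0.11 and 1.92 ± 0.14 on the log2 scale. Members that did not pass include *Keap1* (0.051), *Gclm* (-0.046) and *Taldo1* (-0.045).

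Autophagy genes followed with 10 of 23 higher and 0 lower (0 at the same thresholds in DESeq2 as well), although the median was only 0.23. The shares among all genes were 15.0% and 17.8%. *Sqstm1*, the cargo receptor p62 and itself a target of NRF2, rose from 402, 370.1 and 389.7 CPM to 1776, 1569.8 and 1719.6 CPM (log2 fold change 2.12 ± 0.085, adjusted p = 6.84e-07). *Atg3*, an enzyme of LC3 lipidation, rose 2.12-fold (log2 fold change 1.08 ± 0.087, adjusted p = 1.4e-05) and *Gabarapl1*, an LC3 relative, 2.09-fold (log2 fold change 1.06 ± 0.078, adjusted p = 9.49e-06). Kinases and scaffolds that start autophagy were not called, among them *Becn1* (-0.025), *Ulk1* (-0.33) and *Ulk2* (-0.26).

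**Figure D3:**
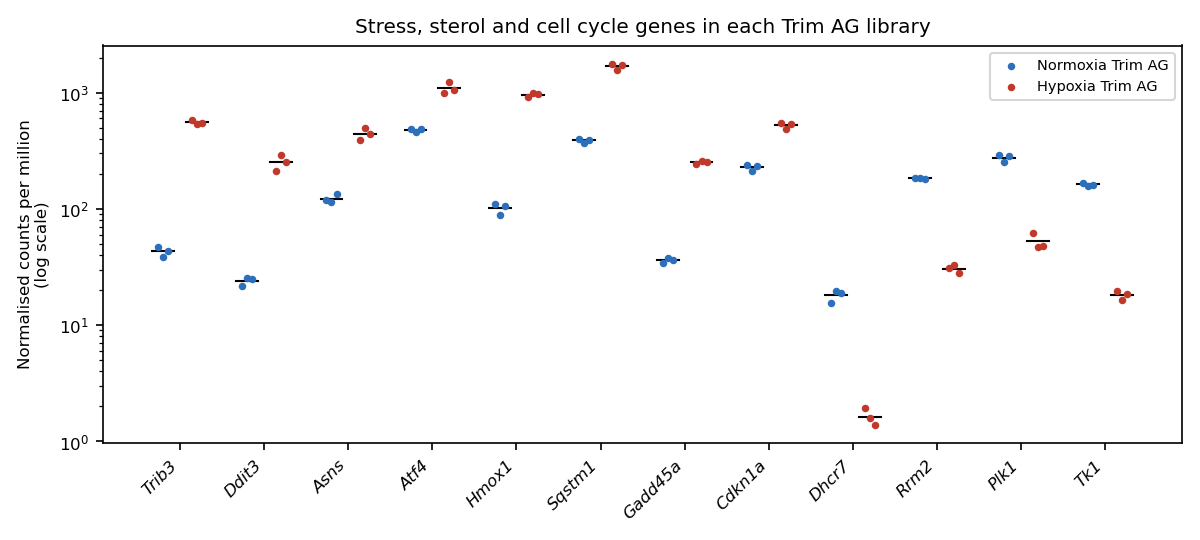
Normalised counts in CPM (y axis, log scale) of 12 stress, sterol and cell cycle genes in each Trim AG library; points are the 3 libraries of a group and bars their means. The 3 hypoxic *Trib3* values lie between 541 and 578 CPM and the normoxic ones between 38.5 and 47.3 CPM. The genes were chosen by a rule that asked for no overlap or after their values were seen, so their separation is no result.

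Growth arrest and death genes showed a mixed picture. Of 18 genes of the DNA damage list, many of which are induced by damage to DNA, 10 were higher and 0 lower (median 0.75). The shares among all genes were 15.0% and 17.8%. *Gadd45a*, a stress sensor that is also reached by ATF4, rose from 34.5, 38 and 36.1 CPM to 244, 260.2 and 253 CPM (log2 fold change 2.8 ± 0.082, adjusted p = 1.67e-07). *Cdkn1a*, the CDK inhibitor p21, rose from 239, 213 and 235 CPM to 548, 490.4 and 532 CPM (log2 fold change 1.19 ± 0.087, adjusted p = 8.73e-06). *Tp53inp1*, an autophagy and death gene, rose 2.3-fold (log2 fold change 1.2 ± 0.13, adjusted p = 6.48e-05).

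Of the 13 tested genes in the list of apoptosis genes that the study itself named as related to miR-125b, 4 were higher and 6 lower. That is beside 15.0% and 17.8% of all genes. The list also holds the muscle gene *Tnnt2*, which the study followed up as its most down-regulated gene and not as an apoptosis gene. *Tnnt2* is among the 6 lower ones, and its values are given with the muscle genes. Beside *Tp53inp1*, the pore former *Bax* rose from 149.8, 137 and 148 CPM to 250.2, 239.8 and 264 CPM (log2 fold change 0.79 ± 0.081, adjusted p = 5.44e-05) and *Dram2*, a lysosomal regulator, from 11.7, 12.1 and 10.8 CPM to 14.9, 21.1 and 19 CPM (log2 fold change 0.67 ± 0.14, adjusted p = 0.00287). *Bmf*, a BH3-only killer protein gene, fell from 10.4, 11.1 and 11 CPM to 5.52, 4 and 4.95 CPM (log2 fold change -1.17 ± 0.15, adjusted p = 0.000192). *Klf13* fell 1.95-fold (log2 fold change -0.97 ± 0.19, adjusted p = 0.00238), *Tp53inp2* 1.79-fold (log2 fold change -0.84 ± 0.099, adjusted p = 0.000125) and *Traf6*, a signal adaptor, 1.53-fold (log2 fold change -0.61 ± 0.15, adjusted p = 0.00851). *Tnfrsf1b*, the TNF receptor 2 gene, was close to the detection filter with 0.765, 0.626 and 1.21 CPM in normoxia and 0.528, 0.382 and 0.469 CPM in hypoxia (log2 fold change -0.91 ± 0.34, adjusted p = 0.0468). The pore former *Bak1* (0.28 ± 0.078) and *Bcl2l11*, which encodes BIM (0.069 ± 0.094), were not called. The calls of *Dram2* (without hypoxia replicate 2, log2 fold change 0.56), *Traf6* (-0.52 without normoxia replicate 2) and *Tnfrsf1b* (-0.59 without normoxia replicate 3) were each lost without those libraries, and that of *Tnfrsf1b* without most others as well.

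Genes of mitosis and DNA replication were lower almost without exception. All 29 mitosis and spindle checkpoint genes were lower (median -1.43), and so were 31 of 35 DNA replication genes (median -1.30), against 17.8% of all genes. *Plk1*, a master kinase of mitosis, dropped from 291, 253 and 285 CPM to 61.8, 47.1 and 48.4 CPM (log2 fold change -2.4 ± 0.12, adjusted p = 1.37e-06). The checkpoint kinase genes *Bub1b* and *Ttk* dropped 4.78-fold and 3.84-fold (-2.26 ± 0.11 and -1.94 ± 0.091 on the log2 scale). Thymidine kinase *Tk1* dropped from 168, 158 and 162 CPM to 19.6, 16.5 and 18.4 CPM (log2 fold change -3.16 ± 0.091, adjusted p = 1.67e-07). *Rrm2*, of ribonucleotide reductase, and *Cdc6*, which loads the replicative helicase, fell by 5.97-fold (log2 fold change -2.58 ± 0.084, adjusted p = 2.6e-07) and 5.06-fold (log2 fold change -2.34 ± 0.11, adjusted p = 9.31e-07). G1 regulators were less uniform, and of 17 tested 8 were lower, 8 were not called and 1, *Cdkn1a*, higher. *Ccne1*, cyclin E1, fell from 71.5, 70.1 and 70.1 CPM to 19.2, 17.5 and 18.4 CPM (log2 fold change -1.94 ± 0.075, adjusted p = 6.36e-07), and *Ccna2* and *E2f2* by 3.8-fold and 3.57-fold. The CDK genes *Cdk4* (0.074) and *Cdk6* (-0.41) were not called.

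Sterol and fatty acid synthesis fell almost as uniformly, with 25 of 28 genes lower and 0 higher (median -1.36), where DESeq2 called 24 lower and 0 higher. Among all genes 17.8% were lower and 15.0% higher. *Dhcr7*, of the last steps of cholesterol synthesis, was at 15.6, 19.9 and 19 CPM in normoxia and 1.94, 1.58 and 1.38 CPM in hypoxia, 11.1-fold lower (log2 fold change -3.47 ± 0.17, adjusted p = 1.13e-06). *Srebf2*, the factor that drives this pathway and chosen after its values were seen, fell 3.13-fold (log2 fold change -1.65 ± 0.11, adjusted p = 6.73e-06), while *Srebf1* had a log2 fold change of -0.028 and was not called. Serum, which carries lipoproteins, was absent from the hypoxic medium, so oxygen and serum cannot be told apart here.

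Muscle genes were mostly lower. Of 26 muscle genes tested 16 were lower and 1 higher (median -0.89), beside 17.8% and 15.0% of all genes. *Myod1*, the myogenic determination factor, fell from 147, 126 and 141 CPM to 37.9, 26.6 and 29.1 CPM (log2 fold change -2.14 ± 0.13, adjusted p = 4e-06), and *Myog*, myogenin, from 39.9, 52.3 and 41.2 CPM to 11.7, 10.6 and 11.6 CPM (log2 fold change -1.98 ± 0.12, adjusted p = 2.81e-06). *Tnnt2*, cardiac troponin T, went from 22.3, 40.1 and 25.7 CPM to 14.7, 16.6 and 16.1 CPM (log2 fold change -0.89 ± 0.19, adjusted p = 0.00386). *Csrp3*, a Z-disc protein gene, was low in normoxia at 1.74, 1.56 and 1.47 CPM and lower still in hypoxia at 0.12, 0.255 and 0.305 CPM (log2 fold change -2.79 ± 0.34, adjusted p = 0.000156). The exception was *Acta1*, skeletal actin, which rose from 81.8, 89.8 and 85.9 CPM to 179, 142 and 161 CPM (log2 fold change 0.91 ± 0.099, adjusted p = 7.99e-05). Of the 9 markers of the myoblast line 5 were lower, *Myod1*, *Myog*, *Mef2c*, *Tnnt2* and *Des*. *Chrna1* was higher, and *Vim*, *Acta2* and the muscle gene *Cav3* (-0.26) were not called.

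Matrix genes were lower for 13 of 29 and higher for 2 (median -0.38), beside 17.8% and 15.0% of all genes. *Col6a3*, a chain of collagen VI, was at 98, 133 and 100.2 CPM in normoxia and 39.6, 13.2 and 21.9 CPM in hypoxia (log2 fold change -2.15 ± 0.33, adjusted p = 0.000569) and *Bgn*, the proteoglycan biglycan, at 679, 1003 and 690.4 CPM in normoxia and 306, 144 and 218 CPM in hypoxia (log2 fold change -1.83 ± 0.26, adjusted p = 0.000355). The hypoxic libraries spread widely in both, with replicate 1 highest and replicate 2 lowest. *Tgfbi* fell 3.15-fold (log2 fold change -1.65 ± 0.13, adjusted p = 1.37e-05). *Ogn*, osteoglycin, was near the detection limit at 0.626, 1.88 and 0.163 CPM in normoxia and 0.288, 0.204 and 0.0938 CPM in hypoxia, the groups overlapped, and its call (log2 fold change -2.16 ± 0.78, adjusted p = 0.0413) was lost without normoxia replicate 2 (-0.99) and without 3 of the other libraries. The proteoglycan gene *Dcn*, decorin, rose from 1.6, 1.22 and 1.27 CPM to 3.93, 6.03 and 4.41 CPM (log2 fold change 1.81 ± 0.22, adjusted p = 0.000161), and *Timp3*, an inhibitor of matrix proteases, from 11.7, 15.8 and 12.7 CPM to 20.6, 20.6 and 22.2 CPM (log2 fold change 0.66 ± 0.12, adjusted p = 0.00163). Without normoxia replicate 1 only 1 gene of the list was higher, since *Timp3* then stood at 0.57. The sum of the fibroblast markers, of which *Col1a1*, *Dcn* and *Lum* are also in the matrix list, was also lower in all 3 hypoxic libraries than in the normoxic ones, and its part in the result was not tested. *Cav1* was at 327, 325 and 331 CPM in normoxia and 219, 257 and 249 CPM in hypoxia and under the fold threshold (log2 fold change -0.44 ± 0.086, adjusted p = 0.00223).

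Immune and immediate early genes were called in both directions, beside 15.0% higher and 17.8% lower among all genes. Of 20 interferon-stimulated genes 5 were higher and 5 lower. *Ifit2* rose from 4.45, 4.9 and 4.7 CPM to 18.3, 23 and 19.5 CPM (log2 fold change 2.11 ± 0.13, adjusted p = 2.86e-06), and the antigen presentation genes *Tap1* and *B2m* rose 2.73-fold and 1.67-fold (1.45 ± 0.13 and 0.74 ± 0.11). *Mx2* and *Usp18*, both low, fell 12.6-fold and 2.86-fold. Of 22 cytokine and NF-κB genes 3 were higher (13.6%) and 5 lower (22.7%), which is near the share among all genes. The NF-κB subunit gene *Relb* rose 4.82-fold to 13.4, 13.5 and 12.9 CPM (log2 fold change 2.27 ± 0.13, adjusted p = 2.81e-06) and the cytokine gene *Il6* 3.71-fold to 12.5, 15.1 and 12.8 CPM (log2 fold change 1.89 ± 0.13, adjusted p = 7.78e-06), whereas the alarmin gene *Il33* fell from 4.11, 6.19 and 4.47 CPM to 0.6, 0.56 and 0.961 CPM (log2 fold change -2.79 ± 0.27, adjusted p = 4.13e-05). *Csf1* and *Tnfaip6* fell 2.13-fold and 2.14-fold. Among 19 immediate early genes 5 rose and 4 fell. *Atf3*, which is also an ATF4 target, rose 4.04-fold (log2 fold change 2.01 ± 0.15, adjusted p = 1.14e-05), *Myc* 2.98-fold and *Klf4* 2.68-fold, while *Fosb*, *Nr4a1* and *Fos* fell 3.37-fold, 2.71-fold and 1.81-fold.

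The respiratory chain changed little. Of 46 nuclear genes 8 were higher and 1 lower (median 0.30), beside 15.0% and 17.8% of all genes, and of 11 mitochondrial ones 1 was higher. *Ndufa6* and *Ndufb9* of complex I were at 48, 40.2 and 42.7 CPM in normoxia and 68.6, 103 and 81.7 CPM in hypoxia and at 131, 119 and 123 CPM in normoxia and 174, 254 and 219 CPM in hypoxia. *Uqcrq* of complex III rose 1.88-fold (log2 fold change 0.91 ± 0.11, adjusted p = 0.000163). *Ndufs1*, the largest subunit of complex I, fell 1.59-fold (log2 fold change -0.67 ± 0.089, adjusted p = 0.00025). *Mt-atp8*, of the ATP synthase, was at 22.2, 25.1 and 17.6 CPM in normoxia and 25.2, 39.8 and 35.3 CPM in hypoxia (log2 fold change 0.62 ± 0.18, adjusted p = 0.015). These counts depended on single libraries, with 13 nuclear genes higher without hypoxia replicate 1 and 5 without replicate 2, and with 3 mitochondrial genes higher without replicate 1 and 0 without hypoxia replicate 2 or normoxia replicate 3. Gene length moved with the fold change, from a median of 0.164 in genes under 1 kb to -0.18 in genes over 4 kb, where 24.9% were lower against 12.2%. With the trend of fold change on length removed, 3 nuclear respiratory genes were higher and 0 mitochondrial ones. Ribosomal protein genes, which are short, took a larger share of the hypoxic libraries, and the part of this in the result was not tested.

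The genes with the largest changes over all protein-coding genes showed a similar division. Beside *Trib3*, *Ddit3* and *Hmox1*, *Arg2*, the mitochondrial arginase, rose from 0.313, 0.626 and 0.293 CPM to 4.97, 6.24 and 5.09 CPM (log2 fold change 3.72 ± 0.29, adjusted p = 1.18e-05). *Cox6a2*, the heart and muscle isoform of a cytochrome oxidase subunit, rose from 3.41, 3.83 and 3.65 CPM to 31.4, 45.9 and 36.7 CPM (log2 fold change 3.39 ± 0.16, adjusted p = 9.27e-07). The aldehyde and alcohol dehydrogenase genes *Aldh3a1* and *Adh7* rose 10.5-fold and 10.5-fold, the interferon-inducible *Ifi27l2b* 10.7-fold and the sulfotransferase gene *Sult2a1* 9.39-fold. Among the decreases several belong to striated muscle. *Xirp1*, an actin-binding protein of muscle, fell from 7.93, 14.1 and 9.91 CPM to 0.696, 0.28 and 0.422 CPM (log2 fold change -4.5 ± 0.34, adjusted p = 1e-05). *Klhl41*, of the sarcomere, fell from 181, 184 and 172 CPM to 11.5, 13.3 and 12.6 CPM (log2 fold change -3.84 ± 0.091, adjusted p = 1.46e-07), and the muscle methyltransferase gene *Smyd1* 17.7-fold (-4.14 ± 0.26). The gap junction gene *Gja5* fell 15.2-fold and *Tmprss11bnl* 14.8-fold. The entries that remain are uncertain. *Nupr1* was at 2.64, 6.64 and 3.03 CPM in normoxia and 224, 13.7 and 15.7 CPM in hypoxia, *Nhp2* at 1.39, 49.2 and 1.66 CPM in normoxia and 0.72, 1.04 and 0.609 CPM in hypoxia, *Mrpl53* at 1.18, 24.2 and 24.3 CPM in normoxia and 0.6, 0.866 and 0.563 CPM in hypoxia and *Hprt1* at 1.32, 33.7 and 1.86 CPM in normoxia and 0.456, 0.611 and 0.609 CPM in hypoxia. In each a library stood far from its own group, *Nupr1*, *Nhp2* and *Hprt1* are names carried by 2 identifiers in the tables, and DESeq2 gave these 3 no adjusted p.

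Whether the oxygen response under Trim AG differed from that under the full-length mimic was tested as an interaction, the log2 fold change under Trim AG minus that under miR-125b, with 12 libraries and no library shared between the mimics. Of 15603 genes tested, 669 (4.29%) had a higher and 1088 (6.97%) a lower response under Trim AG. Of the 666 higher ones tested in all fits, 332 rose under Trim AG and were not called under miR-125b, 107 rose under both, and 5 rose under Trim AG and fell under miR-125b. A further 74 fell under miR-125b and were not called under Trim AG, 37 fell under both, and 111 were called under neither. Of the 1064 lower ones, 524 fell under Trim AG and were not called under miR-125b, 177 fell under both, and 30 fell under Trim AG and rose under miR-125b. Another 146 rose under miR-125b and were not called under Trim AG, 11 rose under both, and 176 were called under neither. In either direction 11.3% of genes were called. Leaving out hypoxia Trim AG replicate 1 gave 1032 and 1513. Without the library labelled Normoxia miR-125b replicate 1, which stood nearer to Plus A, the counts were 613 and 962, and of the named genes *Slc2a1* and *Tp53inp1* lost the call.

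The stress response genes that were called in the interaction were higher. Of 28, 14 had a higher response under Trim AG and 0 a lower one, beside 4.29% and 6.97% of all genes. The counts were the same without that library, and DESeq2 also gave 0 lower. Under miR-125b itself 3 were higher in hypoxia, where 9.34% of all genes were higher and 11.5% lower (20.9% in all). *Trib3* rose by 3.69 (log2) under Trim AG and by 1.51 under miR-125b (difference 2.14 ± 0.10, adjusted p = 1.27e-07), and *Ddit3* by 3.39 and 1.4 (difference 1.96 ± 0.14, adjusted p = 8.71e-06). *Asns* stood at 1.85 and 0.21 and *Atf4* at 1.2 and 0.30, both with the interaction called. Scaled over all libraries, *Asns* averaged 121 CPM under Trim AG and 220 CPM under miR-125b in normoxia, and *Atf4* 474 and 700 CPM. In hypoxia they averaged 436 and 258 CPM, and 1082 and 874 CPM. *Sesn2* and *Chac1*, picked after their values were seen, averaged 107 and 222 CPM, and 50 and 95.5 CPM, in normoxia. Their hypoxic means were 315 and 329 CPM, and 95.5 and 91.3 CPM. For these genes the difference in response thus includes a lower normoxic level under Trim AG. Of the NRF2 list 8 of 16 had a higher response and 1 a lower one, with *Hmox1* at 3.24 and 2.03 (difference 1.17 ± 0.11, adjusted p = 3.45e-05). The count of 8 fell to 5 without normoxia Trim AG replicate 2, and to 5 with library totals in place of TMM. *Casp4*, an inflammatory caspase gene, rose from 24, 24.3 and 25.6 CPM to 121, 179.8 and 144 CPM under Trim AG, 2.59 on the log2 scale against 0.54 under miR-125b (difference 2.02 ± 0.16, adjusted p = 1.27e-05). *Cox6a2* followed with 3.39 and 0.99. *Chrm2*, a muscarinic receptor gene, stood at -0.14 under Trim AG, where it was not called, and at -2.18 under miR-125b.

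Among muscle and matrix genes lower calls outnumbered higher ones in the interaction. Of 25 muscle genes 13 were lower and 1 higher, and of 29 matrix genes 13 and 2, beside 6.97% and 4.29% of all genes. Without the library labelled Normoxia miR-125b replicate 1 the muscle genes lower were 11 and the matrix genes 13. *Myog* stood at -1.98 (log2) under Trim AG and 0.61 under miR-125b (difference -2.62 ± 0.14, adjusted p = 4.67e-07), and *Tnnt2* stood at -0.89 and 1.77 (difference -2.7 ± 0.26, adjusted p = 3.61e-05). *Acta1* was the reverse, at 0.91 and -0.46 (difference 1.33 ± 0.14, adjusted p = 7.76e-05). *Col6a3* stood at -2.15 and 0.17, *Bgn* at -1.83 and 0.24, and *Olfml2b*, an olfactomedin-like matrix gene, at -2.54 and 0.59 (difference -3.17 ± 0.27, adjusted p = 2.29e-05). *Bmf* stood at -1.17 under Trim AG and 0.45 under miR-125b (difference -1.66 ± 0.21, adjusted p = 0.000285). *Usp15*, a deubiquitinase gene, was at 0.23 and -0.83. Among the named decreases of the interaction, *Mif* was at 3.97, 48.9 and 3.1 CPM in normoxia and 2.37, 3.39 and 2.46 CPM in hypoxia, so that a single normoxic library stood apart, and *Mff*, a mitochondrial fission gene, was at 22.1, 18.8 and 14.6 CPM in normoxia and 1.92, 1.17 and 2.74 CPM in hypoxia, with no overlap but a name shared by 2 identifiers. These, *Hprt1* and *Mrpl53* are uncertain.

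HIF targets differed in both directions. Of the 29 HIF targets 3 had a higher and 8 a lower response under Trim AG than under miR-125b, and of the 26 glycolysis genes 0 and 6. Among all genes 4.29% had a higher and 6.97% a lower response. *Slc2a1* rose by 1.05 and 1.65 (difference -0.63 ± 0.20, adjusted p = 0.0376), a call that was lost without most single libraries (adjusted p up to 0.0864, without Normoxia miR-125b replicate 1). *Pdk1* stood at 0.58 and 1.23 (difference -0.68 ± 0.12, adjusted p = 0.00187) and *Pfkm* at -2.36 and -0.93 (difference -1.47 ± 0.18, adjusted p = 0.000185). *Ndrg1* (-0.56 and 1.83), *Ankrd37* (0.83 and 2.23) and *Pfkl* (0.26 and 1.66) were picked after their values were seen and were called lower in the interaction. *Hilpda* was the opposite, with 1.17 and 0.41. Scaled over all libraries, *Ndrg1*, *Ankrd37* and *Pfkl* averaged 1.75, 2.11 and 109 CPM in normoxia under Trim AG. Under miR-125b they averaged 0.767, 1.33 and 70.5 CPM there. Their hypoxic means were 1.18, 3.73 and 130 CPM, and 2.78, 6.32 and 225 CPM. For *Ndrg1*, *Ankrd37* and *Pfkl* the difference in response thus includes a higher normoxic and a lower hypoxic level under Trim AG. *Bnip3* (2.51 and 1.99) and *Vegfa* (1.8 and 1.19) rose under both, and their differences did not reach 1.5-fold. The mitosis genes fell under both mimics, and 5 of 29 fell less under Trim AG, a number that became 9 without Normoxia miR-125b replicate 1, 0 without hypoxia Trim AG replicate 2 or Normoxia miR-125b replicate 2, and 0 with library totals in place of TMM.

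**Figure D4:**
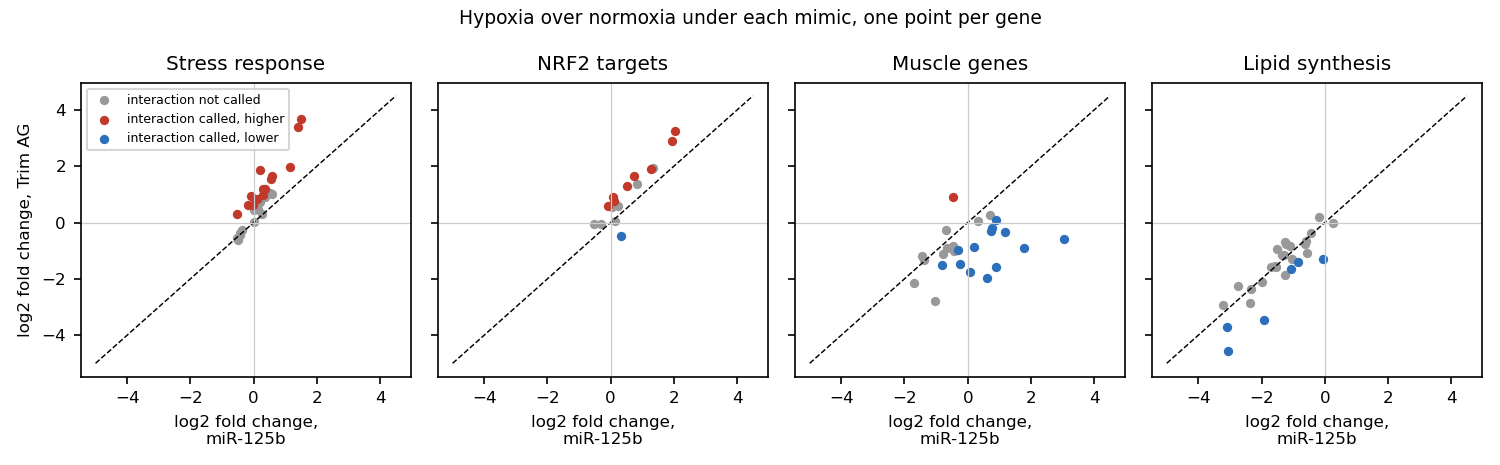
Log2 fold change of hypoxia over normoxia under Trim AG (y axis) against that under miR-125b (x axis) for the tested genes of 4 lists; the dashed line marks equal responses and colours mark the interaction. Of the stress genes 14 of 28 were called higher in the interaction, with *Trib3* at 3.69 and 1.51, and of the muscle genes 13 of 25 were called lower.

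Beside the other mimics, the Trim AG response had its higher correlations with those of the other shortened isomiRs. Across genes its log2 fold changes correlated at r = 0.708 with those under miR-125b (14800 genes), 0.717 with Plus A (14799), 0.829 with Trim A (14766) and 0.816 with Trim AGU (14674), where genes are not independent replicates and no libraries are shared. In edgeR, the interaction of oxygen with Trim AG called 898 (5.75%) higher and 982 (6.29%) lower genes against Plus A, 107 (0.686%) and 68 (0.436%) against Trim A, and 0 (0.00%) and 3 (0.0193%) against Trim AGU, together 12%, 1.12% and 0.0193% of genes. Within the mimics, 10.0% of genes were higher and 12.8% lower in hypoxia under Plus A (22.8% in all), 12% and 14.5% under Trim A (26.5%) and 13.6% and 13.4% under Trim AGU (27.0%). The smaller counts depended on the method. DESeq2 called 196 and 145 against Trim A. Against Trim AGU 1367 of 15563 genes had an unadjusted p below 0.05, DESeq2 called 25 and 28, and the fit of all libraries together 92 and 119. Hypoxia Trim AGU replicate 2 stood apart, with 16981 genes detected and 7.14% of counts in ribosomal protein genes, beside 18663 and 18455 genes and 3.88% and 5.08% in the others of its group, and without it 1 and 3 genes were called. Leaving out single libraries gave 56 to 132 and 29 to 112 against Trim A, with the lowest counts without Normoxia Trim A replicate 1 and the most lower genes without hypoxia Trim AG replicate 1. Without Normoxia Plus A replicate 1, the other library in doubt, 926 and 1037 were called against Plus A, while 1362 were higher without hypoxia Trim AG replicate 1 and 628 lower without normoxia Trim AG replicate 2. *Trib3* rose by 1.51 (log2) under miR-125b, 1.47 under Plus A, 2.04 under Trim A, 3.69 under Trim AG and 3.55 under Trim AGU. *Ddit3* stood at 1.4, 1.56, 2.26, 3.39 and 3.42 in the same order, and *Cox6a2* at 0.99, 1.00, 1.5, 3.39 and 3.18. *Tnnt2* stood at 1.77, 1.85, -0.11, -0.89 and 0.65. The 3 genes called against Trim AGU were *Myog* (difference -1.65 ± 0.20, adjusted p = 0.0165), the keratin gene *Krt8* (-1.45 ± 0.19, adjusted p = 0.0331) and the uncharacterised *AABR07015057.1* (-2.17 ± 0.16, adjusted p = 0.000211), of which the latter pair were picked after their values were seen.

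**Figure D5:**
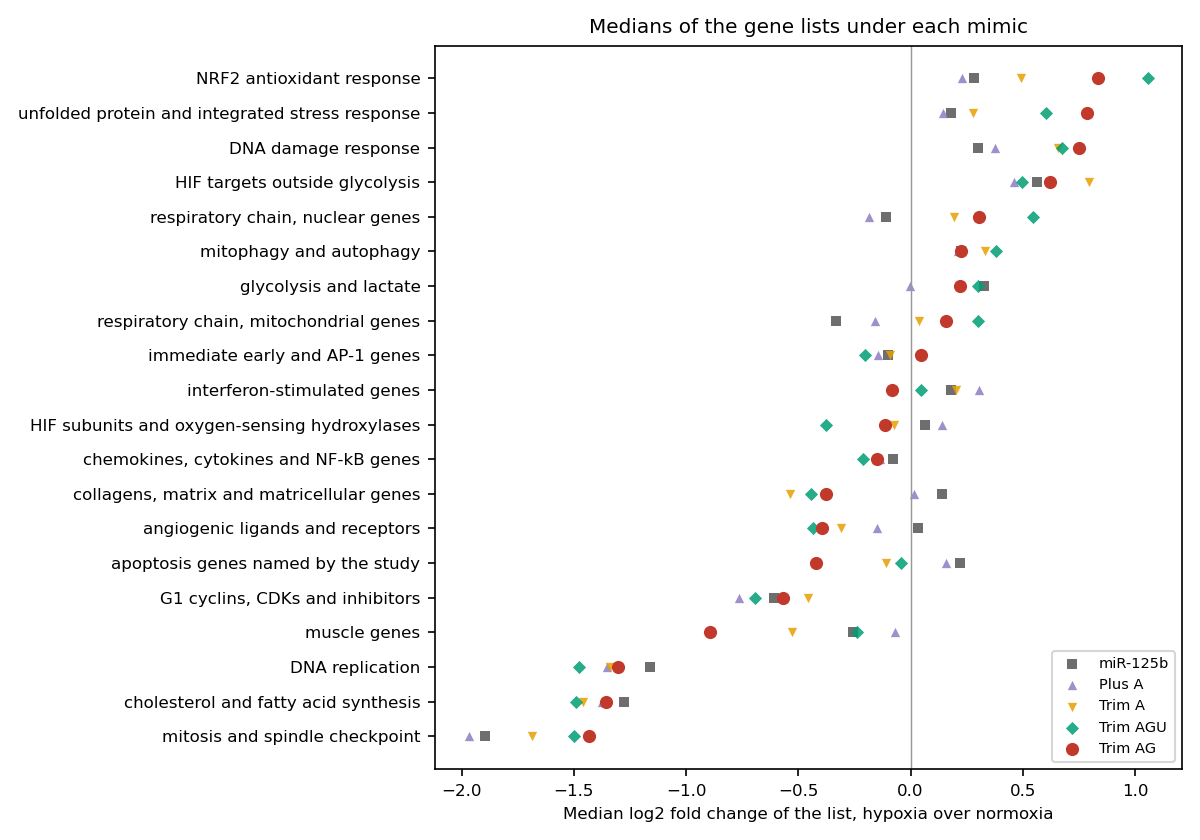
Median log2 fold change of hypoxia over normoxia (x axis) of each gene list (y axis) under Trim AG and the 4 other mimics with counts at both oxygen levels; points are medians over the tested members. The stress response list stands at 0.78 under Trim AG and 0.18 under miR-125b, and the muscle list at -0.89 and -0.25, where leaving out the library labelled Normoxia miR-125b replicate 1 gave 0.14 and -0.063.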

How the data were processed

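Counts per gene were taken from the deposited tables, in which the authors gave the raw count of each library, an FPKM value (a count scaled by gene length and library total) and results of their own DESeq2 test, which were not used. HISAT2 and StringTie appear in the submitters' processing notes without versions or roles, and the genome build is not given in the sources used here, so no gene coordinates of the tables are printed. Libraries were not stranded, so counts of overlapping, antisense or near-identical genes are uncertain. The libraries of both groups were joined on the gene identifier (22533 genes), and a gene left out of a table was set to 0, where it had at most 1 count in other tables. Counts listed in several tables conflicted for 0 genes. Normoxia MC has only group means in the tables used, so no oxygen comparison was made for MC. Totals per library are given with the results, and the SD between libraries includes the counting error.

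A quasi-likelihood test in edgeR 4.0.16 (R 4.3.3) was run on the 6 libraries after TMM scaling and filterByExpr, with Benjamini-Hochberg adjustment over all genes tested. Calls needed an adjusted p under 0.05 and a 1.5-fold change. The interaction with miR-125b used the 12 libraries of 4 groups in the same way. Each standard error was obtained by dividing the log2 fold change by the root of the F statistic. Alternatives were DESeq2 1.42.0, its size factors in edgeR, no filter, a single fit of all libraries, a block for the replicate number, other fold thresholds, thinning to equal depth, subtraction of a length trend (lowess, span 0.3) and each library left out; library totals without TMM, DESeq2, the single fit and single libraries left out for the interactions with Plus A, Trim A and Trim AGU, and the oxygen comparisons without the normoxic replicate 1 of miR-125b and of Plus A, were added after the data were seen. Members and gene lists were chosen with earlier results of these data known. Named genes are the oxygen sensors and the apoptosis genes the study named, up to 3 called genes per direction of each other list (mean of at least 1 CPM, no overlap of the groups), the 10 protein-coding genes per direction with the largest change (at least 5 CPM), the 5 per direction of the interaction, whose log2 differences between oxygen levels did not overlap between the mimics, and 10 fixed genes. Some genes that these rules chose are not reported here. Any other gene is marked in the text as picked with its values known. Where a name had several identifiers, the list used the one with the most counts. Sequences are from RefSeq on GRCr8. Both tests were tried on simulated counts. Tables used pandas 2.3.3 (Python 3.11.15, numpy 2.4.6) and figures matplotlib 3.10.9.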

Additional observations from a re-analysis of the deposited data

Results flagged for a closer look

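The interaction of oxygen with the mimic was itself tested, and each result here had a response to hypoxia under Trim AG that differed from that under another mimic at an adjusted p below 0.05 and a ratio of at least 1.5-fold in edgeR. Against miR-125b 669 genes responded higher and 1088 lower, against Plus A 898 and 982, against Trim A 107 and 68, and against Trim AGU 3 lower. The values that follow are the differences in log2 fold change, Trim AG minus miR-125b, of the named genes.

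Among stress, NRF2 and death genes the differences were 2.14 for *Trib3*, 1.96 for *Ddit3*, 0.78 for *Ppp1r15a*, 1.11 for *Atf3*, 1.36 for *Gadd45a*, 1.17 for *Hmox1*, 0.94 for *Osgin1* and 0.88 for *Sqstm1*. They were 2.02 for *Casp4*, 0.65 for *Tp53inp1*, -1.66 for *Bmf* and -0.99 for *Klf13*. *Tp53inp1* and *Klf13* lost the call when all libraries were fitted together (adjusted p = 0.264 and 0.228 in edgeR) and without 8 and 2 of the 12 single libraries, and *Tp53inp1* also with the length trend removed (0.56).

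Among oxygen, glycolysis and vessel genes the differences were -0.78 for *Arnt2*, -0.63 for *Slc2a1*, -1.47 for *Pfkm*, -0.68 for *Pdk1*, -1.09 for *Pdk2*, 0.72 for *Hilpda* and -1.29 for *Lox*. They were -0.98 for *Cxcl12*, -1.24 for *Nrp1* and 0.59 for *Ndufb9*. *Ndufb9* lost the call when all libraries were fitted together (adjusted p = 0.108 in edgeR), with the length trend removed (0.48), with library totals (0.54), under the block (0.58) and without 4 single libraries. *Slc2a1* lost it in the fit of all libraries (adjusted p = 0.0521 in edgeR) and without 10.

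Among cell cycle and sterol genes the differences were -0.73 for *Tk1*, -0.85 for *Ccne1*, -1.24 for *E2f2*, 0.70 for *Myc* and -1.59 for *Dhcr7*.

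Among muscle and matrix genes the differences were -2.62 for *Myog*, -2.7 for *Tnnt2*, 1.33 for *Acta1*, -1.55 for *Smyd1*, -1.28 for *Klhl41*, -2.35 for *Col6a3*, -2.11 for *Bgn* and -0.94 for *Tgfbi*. They were -1.16 for *Dcn*, 0.63 for *Timp3*, -3.97 for *Ogn* and -3.17 for *Olfml2b*. *Timp3* lost the call when all libraries were fitted together (adjusted p = 0.0723 in edgeR), with the length trend removed (0.58), with library totals (0.58) and without 2 single libraries, and *Smyd1* without 4.

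Among immune genes the differences were 1.23 for *Ifit2*, -3.17 for *Mx2*, -1.37 for *Usp18*, 0.70 for *Relb*, 1.2 for *Il6*, -2.81 for *Il33*, -1.69 for *Fosb* and -0.88 for *Tnfaip6*. *Tnfaip6* lost the call without a filter on low counts (-0.84), in the fit of all libraries (-0.86) and without 6 single libraries, and *Relb* without 1.

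Of the remaining named genes, *Arg2* differed by 1.53, *Ifi27l2b* by 1.55, *Adh7* by 1.22, *Cox6a2* by 2.36, *Sult2a1* by 1.59, *Chrm2* by 2.01, *Usp15* by 1.03, *Gja5* by -1.25 and *Tmprss11bnl* by -1.34. *Gja5* lost the call in the fit of all libraries (-1.23), under the block (-1.25) and without 7 single libraries, *Myc* without 7, *Nupr1* under the block (4.71) and without 8, *Hprt1* without 2 and *Tmprss11bnl* without 1. The uncertain *Nupr1* (5.51), *Mrpl53* (-5.41), *Hprt1* (-6.92), *Mff* (-5.69) and *Mif* (-4.37) each showed a spread within a group or a name shared by identifiers that is described with the results.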

How the results depend on the processing

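With 3 libraries per group, hypoxic libraries deeper than normoxic ones and a medium that changed with oxygen, small differences are the least certain. The 2286 higher and 2719 lower genes became 929 and 1493 at a 2-fold threshold and 4168 and 4170 with none, and ranged from 2149 to 2525 and 2549 to 2959 with each library left out. For the interaction with miR-125b the 669 and 1088 became 164 and 474 at 2-fold, 1772 and 1766 with no fold threshold, 504 and 1265 with library totals in place of TMM, and 489 to 1032 and 837 to 1513 with each library left out. DESeq2 called 196 and 145 for the interaction against Trim A, 25 and 28 against Trim AGU, and the fit of all libraries 92 and 119 against Trim AGU and 3135 lower genes in hypoxia under Trim AGU. Leaving out single libraries gave 698 to 1362 and 628 to 1275 against Plus A, 56 to 132 and 29 to 112 against Trim A, and 0 to 1 and 1 to 5 against Trim AGU. The causes of these shifts were not tested, beyond the thresholds' own construction.

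The other alternatives kept the oxygen counts under Trim AG within 1.5 times, among them DESeq2 (2255 and 2686), no filter on low counts (2463 and 2778), thinning to equal depth (2288 and 2667) and the length trend removed (2281 and 2570). Replicate numbers did not pair the libraries, since the deviations of same-numbered libraries correlated at -0.0144, -0.0961 and 0.0978. Blocking on the replicate number gave 2192 and 2664 calls, and 627 and 1026 for the interaction. No named gene changed direction with a call under any of the alternatives run. *Tnfrsf1b* lost its call under DESeq2, no filter, the block, thinning and without each of 5 of the 6 libraries, *Mif* under the block, *Ogn* under thinning, and *Aldoa*, *Arnt2*, *Dram2*, *Mt-atp8* and *Traf6* with the length trend removed, while *Pdk1* was called under DESeq2 and with no filter.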

Other observations

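Further gene lists, some of them of genes that ATF4 is known to serve, were looked at after the values were seen, so their counts are descriptions. Of 20 cytosolic aminoacyl-tRNA synthetase genes, whose products charge tRNAs with amino acids, 10 were higher and 0 lower in hypoxia under Trim AG in edgeR (0 lower in DESeq2 too). Among all genes 15.0% were higher and 17.8% lower. The median log2 fold change of the list was 0.56, and 12 had a higher response than under miR-125b. Of these, *Farsb* (0.48 against -0.25), *Rars* (0.31 against -0.37) and *Tars* (0.19 against -0.45) were not called under Trim AG itself. Under miR-125b the median of the 20 genes was -0.072, and 0 of them were called higher or lower. *Nars*, for asparagine, went from 312 ± 10.4 CPM to 834 ± 40.7 CPM (log2 fold change 1.42, against 0.40 under miR-125b). *Sars*, for serine, went from 232 ± 10.2 CPM to 611 ± 63.8 CPM (1.4 against 0.26) and *Eprs*, for glutamate and proline, from 692 ± 19.8 CPM to 1439 ± 128 CPM (1.06 against -0.021). Scaled over all libraries, *Nars* averaged 309 CPM in normoxia under Trim AG and 493 CPM under miR-125b. *Sars* averaged 230 and 293 CPM there, and *Eprs* 687 and 1116 CPM. In hypoxia their means were 826 and 657 CPM, 605 and 356 CPM, and 1425 and 1112 CPM. The count of 10 held in every alternative at the same fold threshold, and that of the interaction lay between 10 and 12.

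Of 15 amino acid transporter genes 5 were higher and 4 lower, with *Slc6a9*, a glycine transporter, at 1.69 and the neutral amino acid transporter *Slc38a4* at -1.36. *Slc3a2*, *Slc7a5* and *Slc7a11* are also in the stress response list above. Of these, *Slc3a2* (1.21) and *Slc7a11* (0.98) are among the 5 higher ones, so their calls are counted in both lists. Of 16 heat shock chaperone genes 1 was higher and 1 lower. The lower one was *Hspa8*, from 21.6 ± 1.35 CPM to 11.1 ± 0.891 CPM (-0.96). This level was low beside *Hsp90ab1* at 2113 ± 78 CPM in normoxia, and how reads were assigned to *Hspa8* was not tested. The higher one was *Hspa9*, the mitochondrial chaperone mortalin, from 270.3 ± 9.42 CPM to 637 ± 62.6 CPM (1.24, against 0.049 under miR-125b). Of 31 proteasome genes 2 were higher and 3 lower. The counts of transporter, chaperone and proteasome genes stand beside 15.0% higher and 17.8% lower among all genes. The leukocyte integrin gene *Itgam* rose from 0, 0.0695 and 0.196 CPM to 1.27, 1.58 and 1.05 CPM, while *Ptprc* and *Adgre1*, which define leukocytes and macrophages, stayed at or near 0.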
